A study of Homo sapiens with 12 samples.

Results

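The genes that make, store, take up and break down serotonin were examined for H3K4me3, a histone mark of active promoters, in a human neuroendocrine tumor line. The set held 8 of 20136 protein-coding genes and was chosen by function: TPH1, TPH2 and DDC for synthesis, SLC18A1 and SLC18A2 for vesicle storage, SLC6A4 for uptake, and MAOA and MAOB for breakdown. For each gene, H3K4me3 and IgG peaks were read within 1, 2.5 and 10 kb of its most 5′ annotated end and of any annotated transcript start, in every library. Of the 8 genes, 3 (TPH1, SLC18A1 and MAOA) carried the mark within 1 kb of the 5′ end in at least 1 of 5 libraries, as did 48.2% of all protein-coding genes. None had a peak there in all 5, as 21.3% of all genes did.

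The cells were BON1, labelled as a line from a pancreatic neuroendocrine tumor of human origin. H3K4me3 was mapped by CUT&RUN, in which an antibody directs a nuclease to chromatin and the released fragments are sequenced, with 500000 cells per condition. The control cells (BON1/TGL/pQ) were compared with cells overexpressing HA-Bcl-xL, a tagged anti-apoptotic protein (BON1/TGL/HA-Bcl-xL). Each line was also profiled with an IgG, which measures background cutting. Both lines carried TGL and were grown with puromycin; the labels do not say whether either line was 1 clone, nor whether replicates came from separate cultures, so the spread between replicates may be technical. Peak lists of 11 of the 12 labelled samples were used: all 6 IgG libraries, the 3 control H3K4me3 libraries, and the HA-Bcl-xL H3K4me3 libraries of replicates 2 and 3. Replicate 1 of the latter group was not analysed here.

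Serotonin is made from tryptophan by a hydroxylase, TPH1 in enterochromaffin and other peripheral endocrine cells and TPH2 in neurons, followed by the decarboxylase DDC. A vesicular monoamine transporter, VMAT1 (SLC18A1) in endocrine cells or VMAT2 (SLC18A2) in neurons and some endocrine cells, packs it into granules. The plasma membrane transporter SLC6A4 takes released serotonin back up, and the mitochondrial oxidases MAOA and MAOB degrade it. BON1 cells are widely used as a model of serotonin-secreting endocrine cells. H3K4me3 lies on the nucleosomes around starts of transcription, and it measures chromatin and not RNA.

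The control H3K4me3 libraries had a peak within 1 kb of 1, 0 and 1 of the 8 genes in replicates 1, 2 and 3. That is 0.667 ± 0.577 genes per library (SD, n = 3). In HA-Bcl-xL cells such a peak was present at 2 genes in replicate 2 and at 3 genes in replicate 3, or 2.5 ± 0.707 (SD, n = 2). The HA-Bcl-xL counts were above the control counts and the groups did not overlap, by 1 gene between the nearest libraries. With 2 libraries against 3 the smallest two-sided exact permutation p is 0.2, and no test was made because the genes were chosen with earlier results known. Over all protein-coding genes the groups did overlap: a 1 kb peak was present for 40.4, 32.4 and 28.2% of genes in the control libraries, in order of replicate, against 38.1 and 36.5% in the HA-Bcl-xL libraries. Within 2.5 kb the counts for the 8 genes were 2, 0 and 1 in control and 3 and 3 in HA-Bcl-xL libraries. Among peaks whose −log10 q reached 5 the 1 kb counts were 1, 0 and 0 in control and 0 and 2 in HA-Bcl-xL libraries, and the groups overlapped. They also overlapped with equal list lengths (1, 0 and 1 against 0 and 2), and met at 3 genes within 10 kb of any start (3, 0 and 1 against 3 and 4).

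The count of 3 of the 8 is near the share of all genes with a 1 kb peak in at least 1 library. Both wider windows gave the same 3 genes: within 2.5 kb of the 5′ end 53.5% of all genes had a peak in at least 1 library, and within 10 kb 60.5%. Counting from any transcript start, 56.6% of all genes had a peak within 1 kb, and again it was TPH1, SLC18A1 and MAOA among the 8. No IgG library had a peak near any of the 8 genes in any window, where 0.785% of all genes had an IgG peak within 1 kb of the 5′ end, 4.47% within 10 kb, and 9.06% within 10 kb of any start.

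The lists differed in depth, and few fragments lay under each peak. H3K4me3 lists held 10247 to 17711 peaks on chromosomes 1 to 22, X and Y, and the median summit, solved from each peak's fold and p-value, held 9 to 12 fragments. Their background floor, a relative measure of depth, was 0.0478 to 0.0705 fragments per base. Control replicate 2, the library with no peak at any of the 8 genes, had the highest floor of the 5, and control replicate 3 the lowest. The list of control replicate 2 was nevertheless short, with 12159 peaks, and only that of control replicate 3 was shorter, with 10247. IgG lists held 1674 to 2113 peaks in control and 244 to 268 in HA-Bcl-xL libraries. The lowest peaks called had 3 fragments in every H3K4me3 list. The 11 peaks within 2.5 kb of the 5′ ends of the 8 genes had solved backgrounds of 0.179 to 0.480, above the floors. They held at least 5 fragments, so the limit there may be higher than 3. A gene without a peak was below the calling limit and was not shown to lack the mark. The endogenous BCL2L1 promoter, which does not check the transgene, had a 1 kb peak in 2 of 3 libraries of control cells and in both of HA-Bcl-xL cells. Of the neuroendocrine markers, CHGB, SCG2 and NEUROD1 had a 1 kb peak in all 5 libraries, CHGA in 1, SYP in 2 and SNAP25 in 1, and INSM1, ENO2 and NCAM1 in none. Of 5 epithelial markers, KRT8, KRT18 and CDH1 had one in all 5, EPCAM in 4 and KRT19 in 1. None of 7 markers of blood, stromal, liver and glial cells had one.

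TPH1, the first enzyme of the pathway outside neurons, had a peak near its start in each HA-Bcl-xL library and in none of the control libraries. The gene lies on the minus strand of chromosome 11 (GRCh37, chr11:18039102-18067816), and its principal transcript, TPH1-205, begins at the 5′ end, 18067816. The bases covered by peaks within 1 kb were 0, 0 and 0 in control replicates 1 to 3, 199 in HA-Bcl-xL replicate 2 and 107 in replicate 3. Peaks in both HA-Bcl-xL and no control library were found for 0.844% of all protein-coding genes, and TPH1 was the 1 member among them. The converse pattern, all 3 control and no HA-Bcl-xL library, held for 0.248% of all genes and for 0 of the 8.

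The TPH1 peaks of the HA-Bcl-xL libraries lay at different places. In replicate 3 the peak ran from 90 bases upstream to 16 bases downstream of the 5′ end (chr11:18067800-18067906), over the start and the 5′ UTR in exon 1 of TPH1-205. Its summit held 10 fragments, its deposited fold was 7.47 and its −log10 q 7.44, and its percentile rank by −log10 p in its own list was 58.3%. In replicate 2 the peak lay in intron 1 (chr11:18067230-18067428), with its nearest edge 388 bp inside the gene. This second peak rested on 6 fragments, with a fold of 4.91, a −log10 q of 3.16 and a rank of 11.9%. The peaks shared no base: 371 bp separated them and their summits were 573 bp apart. The sequences are shown because they are the bases behind the only pattern that set the lines apart among the 8 genes. They were read from the GRCh37 genome on the TPH1 strand, the first from 220 bases upstream to 29 bases from the start inclusive (chr11:18067788-18068036), with the 107 bases under the replicate 3 peak in capitals, and the second under the replicate 2 peak with CpG dinucleotides in capitals.
TPH1 start: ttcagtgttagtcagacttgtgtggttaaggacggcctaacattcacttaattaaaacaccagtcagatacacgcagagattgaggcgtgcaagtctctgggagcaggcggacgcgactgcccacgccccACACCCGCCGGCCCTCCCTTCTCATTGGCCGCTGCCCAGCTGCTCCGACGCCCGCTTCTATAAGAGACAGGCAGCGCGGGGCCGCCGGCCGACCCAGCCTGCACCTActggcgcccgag
TPH1 intron 1 peak: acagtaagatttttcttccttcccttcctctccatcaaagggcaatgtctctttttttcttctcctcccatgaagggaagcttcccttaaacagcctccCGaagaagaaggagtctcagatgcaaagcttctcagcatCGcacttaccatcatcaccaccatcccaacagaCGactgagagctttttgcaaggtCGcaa
The stretch around the start was 61.8% G or C with 20 CpG in 249 bases, and the intron stretch 46.7% with 4 CpG in 199 bases. The CCAAT box, searched as CCAAT on both strands of the 250 bases before the 5′ end, was found in TPH1 once, as ATTGG at bases -67 to -63, inside the capitals. The same letters were found in 33.1% of all protein-coding genes, and in TPH1 and SLC18A1 among the 8.

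The presence of TPH1 in both HA-Bcl-xL lists rested on the weaker peak. With a −log10 q of at least 5, or with the same number of peaks (10247) from each H3K4me3 list, the TPH1 peak of replicate 2 was no longer counted, and TPH1 had a peak in 1 of 2 HA-Bcl-xL and 0 of 3 control libraries. The nearest peak to the TPH1 5′ end in the control libraries was 33.8, 33.8 and 59.8 kb away in replicates 1 to 3. The first 2 of these lay by SERGEF, the next gene beyond the 3′ end of TPH1, and the last by SAAL1 upstream. Flanking genes here, other than FIGNL1, were named after their values were seen. SERGEF-side peaks held 9 and 12 fragments in control replicate 1, 9 in control replicate 2 and 6 in HA-Bcl-xL replicate 3. No control library had a peak over the TPH1 gene itself.

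**Figure D1:**
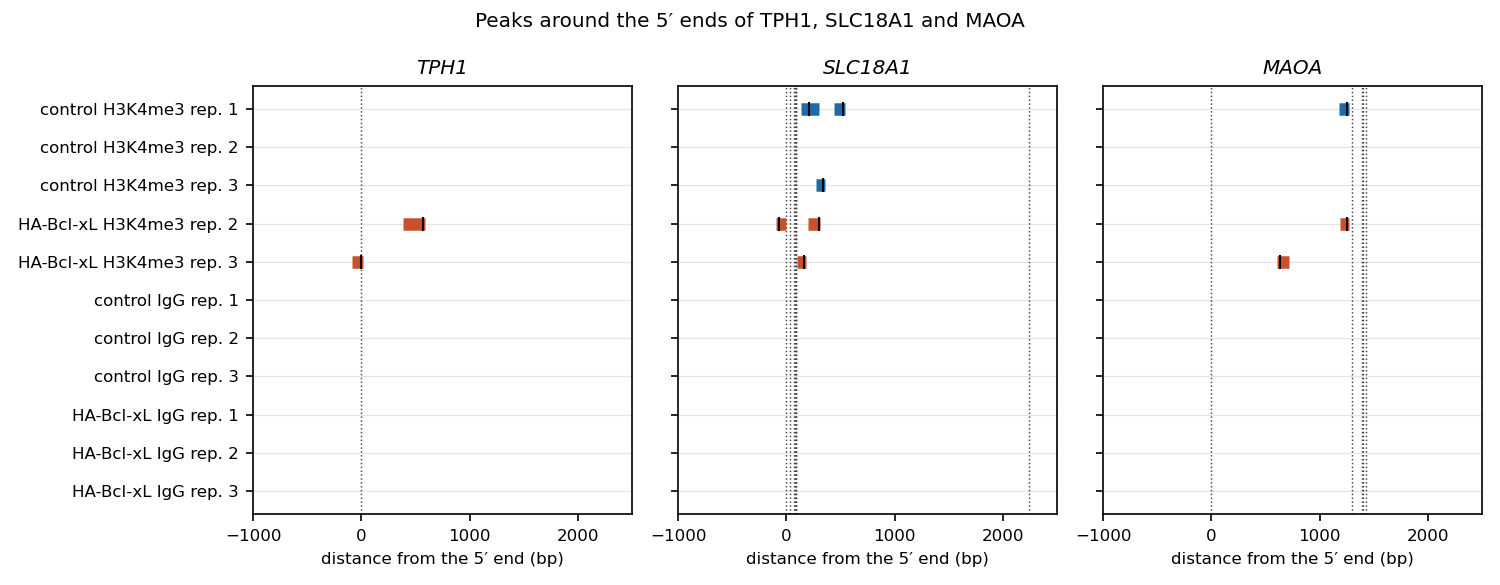
Peaks around the 5′ ends of TPH1, SLC18A1 and MAOA in the 11 libraries: the x axis is the distance from the 5′ end in bp, along the gene; bars are peaks (blue control, red HA-Bcl-xL), black ticks are summits and dotted lines are annotated transcript starts. The TPH1 peaks appear in the 2 HA-Bcl-xL H3K4me3 libraries alone and do not overlap, SLC18A1 has peaks in 4 of 5, MAOA in 3 of 5, and the 6 IgG libraries have none.

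TPH2, the neuronal hydroxylase, had no peak within 10 kb of any start in any library. It lies on the plus strand at chr12:72332625-72580398. The nearest H3K4me3 peak to its 5′ end was 98.1 kb away at the closest, 98.2 kb at the median and 98.7 kb at the farthest of the 5 libraries. In every library that peak was the one by TBC1D15, whose 5′ end is 99.1 kb from that of TPH2 and which had a 1 kb peak in all 5. A peak inside the TPH2 gene was called once, in HA-Bcl-xL replicate 2 (chr12:72497288-72497384), on 3 fragments with a −log10 q of 2.80. It ranked at 7.83% of its list and lay closer to the 5′ end of TRHDE, at 16242 bp, than to any TPH2 start.

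DDC, the decarboxylase that serves both serotonin and dopamine synthesis, had no peak within 10 kb of its 5′ end in any library. The gene lies on the minus strand at chr7:50526134-50633102 with 14 annotated transcripts from 10 starts. Its nearest H3K4me3 peak was 21.0 kb from the 5′ end at the closest, 115 kb at the median and 2503 kb at the farthest. By the widest rule, 10 kb from any start, control replicate 1 had 2 peaks on 5 fragments each and HA-Bcl-xL replicate 3 had 1 on 7 fragments. These peaks lay 9051 to 9721 bp from the start of the short transcript DDC-211 near the 3′ end of the gene, and 97 to 427 bp from the 5′ end of FIGNL1, to which they were closer.

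SLC18A1, the vesicular transporter VMAT1 of endocrine cells, was the member with peaks in the most libraries. The gene lies on the minus strand at chr8:20002366-20040717, and the start of its principal transcript, SLC18A1-202, is 70 bases inside the 5′ end. The bases covered by peaks within 1 kb were 274, 0 and 86 in the control libraries, in order of replicate, and 202 and 84 in the HA-Bcl-xL libraries. The groups overlapped, and control replicate 2 was the library without a peak. A peak in exactly 4 of 5 libraries was found for 7.96% of all protein-coding genes, and a further 21.3% had one in all 5. In control replicate 2 the nearest peak was 14.1 kb away, on the side of ATP6V1B2.

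The 6 SLC18A1 peaks in these 4 libraries were low. Control replicate 1 had 1 peak with its summit 205 bases inside the gene on 7 fragments and another at 527 bases on 5. Control replicate 3 had 1 peak, with its summit at 338 bases, on 5 fragments. In HA-Bcl-xL replicate 2 a summit 65 bases upstream and another 300 bases inside each held 6 fragments, and in replicate 3 a summit at 164 bases held 5. Every one of the 6 had fewer fragments than the lower quartile of the peaks in its own list. Ranks by −log10 p were 14.3 to 44.6%, and −log10 q ran from 3.48 to 6.64, with 1 peak, in control replicate 1, at 5 or more. The peak at 205 bases and that at 164 bases overlapped the 5′ UTR in exon 1. The larger control replicate 1 peak shared 35 bases with the peak of control replicate 3, 103 with that of HA-Bcl-xL replicate 2 and 45 with that of HA-Bcl-xL replicate 3. The peaks of the HA-Bcl-xL libraries shared none, with gaps of 24 and 99 bp. SLC18A1 thus had peaks within the same 1 kb in both lines, without a single base covered in all 4 libraries. At a −log10 q minimum of 5 the peak of control replicate 1 alone was counted, and with 10247 peaks per list those of control replicates 1 and 3.

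The change in covered length at promoters between the lines was fitted with limma on log2 of the bases under peaks. No promoter passed an adjusted p of 0.05 (Benjamini-Hochberg) among the 4289 with a peak in all 5 libraries, a share of 0%, and 210 had an unadjusted p under 0.05. None of the 8 genes was in that fit. SLC18A1 entered the fit of 7145 promoters with a peak in at least 3 of 5 libraries, with 50 bases added before the log, where again 0% passed and 313 had an unadjusted p under 0.05. Its log2 difference, HA-Bcl-xL minus control, was 0.34 with an SE of 0.70, a 95% interval of -1.32 to 1.99 and a limma adjusted p of 0.983. Among promoters with a peak in all 4 libraries other than control replicate 2, which had no SLC18A1 peak, the difference was -0.33 (SE 0.53, limma adjusted p 0.998). These fits differ in the library left out, in the promoters fitted and in the added bases, and the part of each in the change of sign was not tested. The first interval holds changes in both directions. The genes with the most similar covered bases over the 5 libraries, by Euclidean distance, were SLC25A17 at 13.3 bp, SLC39A13 at 20.6 bp and PRKAB2 at 32.0 bp.

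SLC18A2, the second vesicular transporter (VMAT2), was without a peak within 10 kb in every library. It lies on the plus strand at chr10:119000604-119038941. The nearest H3K4me3 peak to its 5′ end was 66.0 kb away in HA-Bcl-xL replicate 3 and 132 or 133 kb away in the other 4 libraries. The sequence before its start is shown beside that of TPH2, as a CpG-rich and a CpG-poor member without a peak. Each is the 220 bases directly upstream of the 5′ end on the plus strand of GRCh37, SLC18A2 at chr10:119000384-119000603 and TPH2 at chr12:72332405-72332624, with CpG dinucleotides in capitals.
SLC18A2 upstream: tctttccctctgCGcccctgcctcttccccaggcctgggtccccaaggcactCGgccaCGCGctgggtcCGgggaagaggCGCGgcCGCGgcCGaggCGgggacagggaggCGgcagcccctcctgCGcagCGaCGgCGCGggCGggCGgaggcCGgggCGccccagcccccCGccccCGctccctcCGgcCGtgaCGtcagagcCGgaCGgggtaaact
TPH2 upstream: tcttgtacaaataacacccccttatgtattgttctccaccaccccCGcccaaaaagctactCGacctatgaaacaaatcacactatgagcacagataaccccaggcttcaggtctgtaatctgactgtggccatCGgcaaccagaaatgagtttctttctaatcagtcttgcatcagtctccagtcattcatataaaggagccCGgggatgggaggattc
The SLC18A2 stretch held 28 CpG and was 78.6% G or C, and the TPH2 stretch held 4 CpG and was 46.4% G or C. A GC box, GGGCGG on either strand of the 250 bases before the 5′ end, was found in 48.8% of all protein-coding genes and in TPH2, SLC18A2, SLC6A4 and MAOB among the 8. For MAOA the bases searched, for this and the other motifs, lie before the MAOA-204 end, which is 1392 bases upstream of the principal start. The bases directly before the principal MAOA start were not searched. The MAOA stretch shown further below, which lies before that start, holds CCGCCC, the reverse letters of the GC box. TPH2 also held the letters TATAAA at bases -29 to -24, as did 10.1% of all genes somewhere in the 250 bases on either strand. The E-box CACGTG, in 7.17% of all genes, was in none of the 8. A match describes letters, not binding.

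SLC6A4, the transporter that returns serotonin to the cell, had no peak within 10 kb of any start. It lies on the minus strand at chr17:28521337-28563020, with the principal start 305 bases inside the 5′ end. The nearest H3K4me3 peak was 55.3, 118 and 119 kb away in the control libraries, in order of replicate, and 118 and 55.0 kb away in the HA-Bcl-xL libraries. The closer of these peaks were by BLMH upstream.

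MAOA, the oxidase with the higher affinity for serotonin, had peaks in 3 of 5 libraries, all of them upstream of its principal start. The gene lies on the plus strand at chrX:43514155-43606064. Its 5′ end is that of the long transcript MAOA-204, and the principal transcript MAOA-201 begins 1392 bases further in. The bases covered within 2.5 kb of the 5′ end were 91, 0 and 0 in the control libraries, in order of replicate, and 83 and 119 in the HA-Bcl-xL libraries. The groups overlapped, since the value of control replicate 1 lies between those of the HA-Bcl-xL libraries. Only the HA-Bcl-xL replicate 3 peak fell within 1 kb of the 5′ end, and counted from any start within 1 kb all 3 were included.

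Control replicate 1 and HA-Bcl-xL replicate 2 had the same MAOA summit base, chrX position 43515403. Their peaks, chrX:43515333-43515423 and chrX:43515343-43515425, shared 81 bases. They ended 35 and 33 bp before the next annotated start at 43515458. The first held 9 fragments with a −log10 q of 6.74 and the second 11 with 9.36, ranks of 45.6 and 71.4% in their lists. The HA-Bcl-xL replicate 3 peak, chrX:43514758-43514876, held 9 fragments with a −log10 q of 6.16, and its summit was 616 bp from the shared one. All 3 MAOA peaks passed a −log10 q of 5, against 1 of 2 for TPH1 and 1 of 6 for SLC18A1, and all lay inside exon 1 and the 5′ UTR of MAOA-204. The 30 bases around the shared summit (chrX:43515388-43515417, plus strand, GRCh37) are shown because they are the one place where libraries of both lines had the same summit. CpG dinucleotides are in capitals.
MAOA shared summit: tgaaacatcagctcCGcccctgggCGctcc

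MAOB, the other oxidase, was without a peak within 10 kb in every library. It lies next to MAOA in the opposite orientation, on the minus strand at chrX:43625857-43741696. Its nearest H3K4me3 peak was the MAOA one, 226 to 227 kb away, in the 3 libraries with a MAOA peak, and 1888 and 1960 kb away in control replicates 2 and 3. Those 2 control libraries had no peak at either oxidase.

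**Figure D2:**
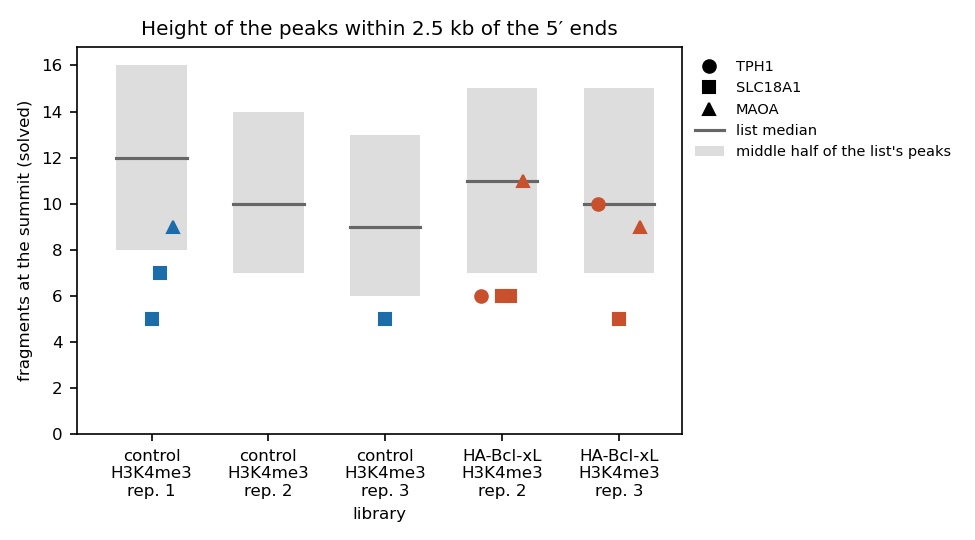
Fragments at the summit of the 11 peaks within 2.5 kb of the 5′ ends, by H3K4me3 library, with the median (line) and the middle 50% (grey) of all peaks in the same list. The 11 peaks held 5 to 11 fragments; the 6 of SLC18A1 lie under the grey bars, and control replicate 2 has no point.

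The 8 genes were ordered by the median distance to the nearest peak, with the H3K4me3 libraries of both lines pooled. The median over the 5 H3K4me3 libraries was 0.133 kb for SLC18A1, 1.19 kb for MAOA and 33.8 kb for TPH1. It was 98.2 kb for TPH2, 115 kb for DDC, 118 kb for SLC6A4, 132 kb for SLC18A2 and 227 kb for MAOB. The ranges of neighbours in this order overlapped, as for MAOA at 0.603 to 2116 kb and TPH1 at 0 to 59.8 kb, except between TPH1 and TPH2 and between SLC18A2 and MAOB. TPH2, at 98.1 to 98.7 kb, was the gene with the narrowest range relative to its median. Within each line the order of medians differed, though SLC18A1 stayed nearest and MAOB farthest. TPH1 was nearer than MAOA in control libraries (33.8 and 1733 kb) and in HA-Bcl-xL libraries (0.194 and 0.896 kb). In control libraries only MAOB was farther than MAOA, and DDC, at 156 kb, was farther than SLC6A4 (118 kb) and SLC18A2 (132 kb). In HA-Bcl-xL libraries DDC, at 67.9 kb, and SLC6A4, at 86.6 kb, were nearer than TPH2 at 98.15 kb. In the 6 IgG libraries the nearest peak was at least 71.6 kb from every one of the 8 genes.

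**Figure D3:**
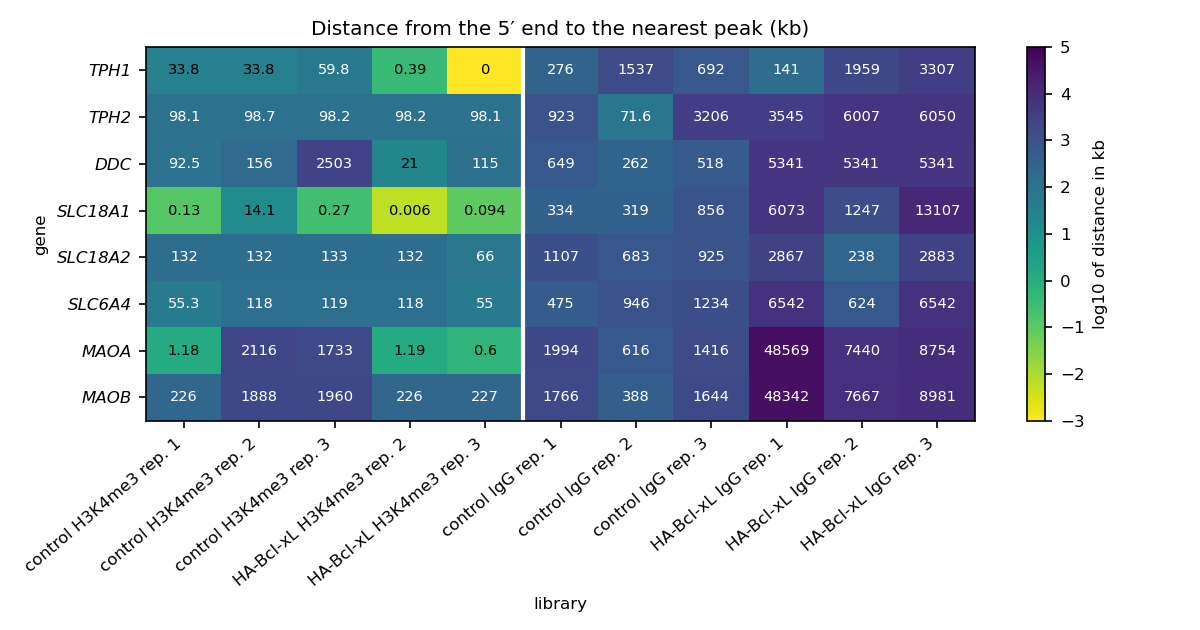
Distance in kb from each gene's 5′ end to the nearest peak, by library, with color on a log10 scale and a white line between the 5 H3K4me3 and 6 IgG libraries. SLC18A1 is within 0.27 kb of a peak in 4 H3K4me3 libraries, TPH1 within 0.39 kb in the 2 HA-Bcl-xL ones, and no IgG library comes within 71.6 kb of any gene.

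The promoters of the 8 genes ranged from poor to rich in CpG. The ratio of observed to expected CpG within 1 kb of the 5′ end was 0.189 for DDC, 0.222 for SLC18A1, 0.347 for TPH2, 0.483 for MAOB and 0.498 for TPH1. It was 0.667 for SLC18A2, 0.695 for MAOA and 0.699 for SLC6A4. The median was 0.490 over the 8 and 0.612 over all protein-coding genes. When all genes were ordered by this ratio into 5 equal classes, the share with a peak in at least 1 H3K4me3 library was 3.45, 26.3, 66.7, 73.1 and 71.3% from the lowest to the highest class.

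SLC18A1 lay in the lowest CpG class, where 0.596% of genes had a peak in all 5 libraries, and had one in 4. DDC, in the same class, had none. TPH1, TPH2 and MAOB lay in the next class, and of them TPH1 alone had a peak. SLC18A2 lay in the middle class and SLC6A4 and MAOA in the one above it, where most genes had a peak. SLC18A2 and SLC6A4 had none in any library, and MAOA had its 1 kb peak in 1. The MAOA ratio and this count were taken at the 5′ end of MAOA-204, upstream of the principal start. Within 1 kb of any start MAOA had a peak in 3 libraries. These positions are given as a description of 8 genes.

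**Figure D4:**
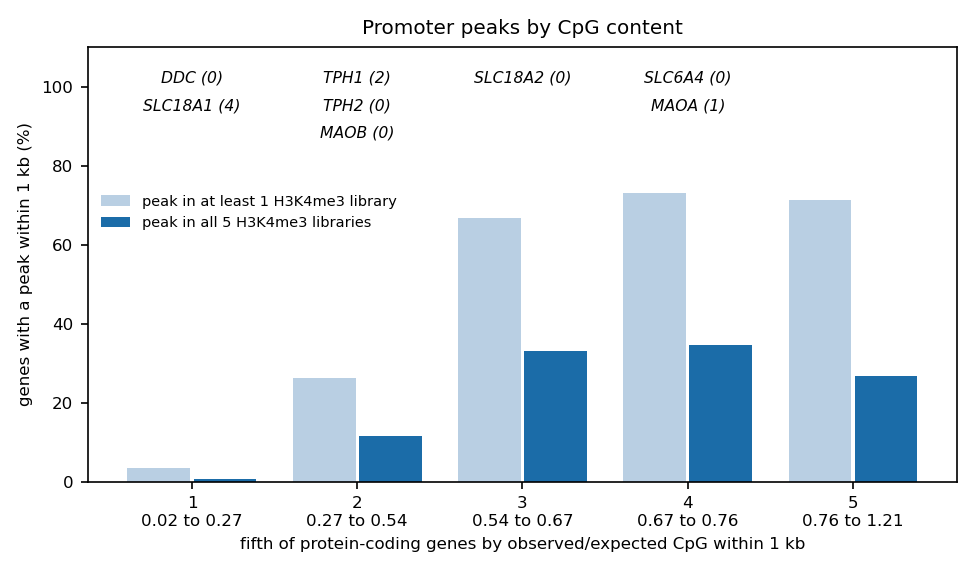
Share of protein-coding genes with a 1 kb promoter peak in at least 1 (light) and in all 5 (dark) H3K4me3 libraries, in 5 equal classes of observed to expected CpG; the number of libraries with a peak stands after each of the 8 genes. SLC18A1 has 4 in a class where 3.45% of genes have any, and SLC6A4 has 0 in a class where 73.1% do. The number for MAOA is taken at the 5′ end of MAOA-204, upstream of its principal start.

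The other genes of serotonin metabolism and signaling were read in the same way, 46 in all. A 1 kb peak was present in all 5 H3K4me3 libraries for 4 of them, in 1 to 4 for 6, and in none for 36. Of all protein-coding genes, 21.3% had one in all 5 and 48.2% in at least 1. No gene of the 46 had peaks in both HA-Bcl-xL and no control libraries (0.844% of all genes), and none had the converse (0.248%). Among the genes for the tetrahydrobiopterin cofactor of the hydroxylases, GCH1, its rate-limiting enzyme, and SPR, its last enzyme, had a peak in all 5 libraries. PTS had one in 3, and QDPR and PCBD1 in 1 each. Of 5 genes of tryptophan supply and competing breakdown, the transporter subunits SLC3A2 and SLC7A5 had peaks in 5 and 4 libraries. The 3 enzymes that divert tryptophan to kynurenine had none.

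Of 17 serotonin receptors, HTR2A had a peak in all 5 H3K4me3 libraries and HTR1B in 3, and 15 had none. HTR6 had a peak in 1 IgG library and in no H3K4me3 library; it was named after its values were seen. The 4 low-affinity transporters and the 5 genes of downstream metabolism had no peak. None of the 9 transcriptional regulators had a 1 kb peak. Counted from any transcript start, FEV had one in 2 libraries and GATA2 and REST in 4 each, and these 3 were likewise named after their values were seen.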

How the data were processed

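The peak lists were deposited per library, in hg19 (GRCh37) coordinates. The submitters' processing notes name bcl2fastq 2.20, Trimmomatic 0.36, Bowtie2 2.2.9, MACS2 2.1.1 and deepTools 3.5.1. The settings, duplicate treatment and use of a control are not given in the sources used here. Each deposited list gives a score, a fold ratio at the summit, a −log10 p and a −log10 q per peak, all of them the authors' values. These values served only inside the list they belong to, for description, ranking and filtering.

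The number of fragments at a summit was solved from the deposited fold, read as (n + 1) / (background + 1), and the Poisson p; per list, 95.1 to 99.96% of peaks gave a whole number, with a tolerance of 0.001 on the −log10 p. The lists do not record whether these are fragments or reads. The lowest background of a list was taken as its relative depth. Counts cover counting error only, since PCR copies are not independent molecules.

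Starts came from GENCODE release 44 lifted to GRCh37, over 20136 protein-coding genes. A gene counted as having a peak with at least 1 bp in the window. Coordinates are 1-based, and sequences were read from the GRCh37 genome. Covered lengths, centred on each library's median, were fitted with limma 3.58.1 (R 4.3.3) with Benjamini-Hochberg adjustment. The steps were run on simulated data, in which the width changes were several times the residual SD. That run does not measure the power to find smaller changes. Python 3.11.15 and pandas 2.3.3 were used. Alternatives were other windows and starts, equal list lengths, a −log10 q minimum of 5, summits inside the window, removal of IgG peaks, other width fits and leaving out each library. All 8 genes are named. Other pathway genes are named where they had a peak within 1 kb, except for an item not reported here, and flanking genes where a peak within 10 kb of a member lay closer to them. The 3 promoters most like SLC18A1 in covered bases are also named. The genes and lists were chosen with earlier results of these data known.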

Additional observations from a re-analysis of the deposited data

How the results depend on the processing

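The mean number of the 8 genes with a peak, 0.667 in control and 2.5 in HA-Bcl-xL libraries, was 1 and 3 within 2.5 or 10 kb of the 5′ end and within 1 or 2.5 kb of any start. Within 10 kb of any start it was 1.33 and 3.5, with 3, 0 and 1 genes in control and 3 and 4 in HA-Bcl-xL libraries. A −log10 q minimum of 5 gave 0.333 and 1 (SD 1.41, n = 2), and the same number of peaks per list 0.667 and 1 (SD 1.41, n = 2), with 1, 0 and 1 genes against 0 and 2. Under each of these 3 settings the groups overlapped or met. Summits inside the window left both means as reported. Removal of IgG peaks could not change them, since the nearest IgG peak to any of the 8 5′ ends was 71.6 kb away. The cause of the changes under the other settings was not tested. Leaving out 1 library at a time, the control mean was 0.5 to 1, the HA-Bcl-xL mean 2 to 3, and the number of members with a peak in all libraries 0 to 1 (1, SLC18A1, without control replicate 2). The number with an IgG peak was 0 to 0.

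The number of promoters past the limma adjusted p of 0.05 for width was 0 to 9 with 1 library left out, 1 without control replicate 2, 3 without HA-Bcl-xL replicate 2 and 9 without HA-Bcl-xL replicate 3. In the last 2 the lone HA-Bcl-xL library is assumed to vary like the controls. With a replicate block it was 13, none of them a member. Under that block the SLC18A1 difference, in the wider set of promoters, was 0.78 (SE 0.74, limma adjusted p 0.863). The labels give a shared number but no shared culture or day, and deviations of same-numbered libraries correlated by 0.03 and 0.05 over 4289 promoters. Other centring, a −log10 q of at least 5 and a 2.5 kb window gave 0. No member entered the width fit of promoters with a peak in all 5 libraries, so its alternatives there have no value. Depth limits these results, since the median summit held 9 to 12 fragments.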
